A study of Mus musculus with 12 samples.

Results

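The 10 genes described here form the core of the transforming growth factor beta (TGF-beta) pathway in mouse regulatory T cells (Tregs). They are the ligand gene Tgfb1, the receptor genes Tgfbr1, Tgfbr2 and Tgfbr3, the signal carriers Smad2, Smad3 and Smad4, and the negative regulators Smad7, Smurf1 and Ski. The members were chosen by gene symbol from general knowledge of the pathway. All 10 were found among the 26609 genes of the count table, and all 10 were among the 13692 genes that passed the filter on low counts.

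RNA was sequenced from Tregs of SAMP/YitFC mice, a strain that develops ileitis spontaneously. The cells were single CD4+CD25hiCD127lo T cells sorted by flow cytometry from mesenteric lymph nodes, although the source label calls them intestinal, and the mice had no treatment. The titles give males and females of each genotype, with 3 libraries in each of 4 groups. WT mice carry the strain's own Esr2 and KO mice (SAMP-ERb-KO) lack Esr2, the gene of estrogen receptor beta, in the whole body. All groups share the SAMP background, no age is given in the labels, and the knockout is not limited to T cells. The design asks how the receptor's loss and sex relate to Treg gene expression. No label ties a library to its own mouse, and the p-values below measure only how the libraries spread, which may be partly technical.

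Total counts ran from 10.2 M to 16.7 M per library. The T cell and Treg markers Cd3e, Cd3g, Cd4, Foxp3, Il2ra, Ikzf2 and Ctla4 summed to between 4119 and 5507 CPM (counts scaled to library size) in every library. In 2 respects the data went against the labels. Xist and the Y-linked genes went against the titled sex in WT female 2, KO male 1, KO male 2 and KO female 1. Esr2 lay between 0 and 0.896 CPM in WT male 1, 2 and 3, WT female 1, KO male 1 and KO male 2, and between 8.06 and 12.3 CPM in the other 6 libraries, 4 of which are titled KO. Thus 4 of 6 libraries titled WT had almost no Esr2 reads, against 2 of 6 titled KO. The genotype titles are therefore in doubt as well as the sex titles, and the deleted stretch of Esr2 is not named in the labels. WT, KO, male and female below mean libraries with those titles, and every direction is a direction between titles. The members' values without the 4 libraries of unmatched sex are given together after Smad4.

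TGF-beta binds the type II receptor TGFBR2, which draws in and phosphorylates the type I receptor TGFBR1. TGFBR3, also called betaglycan, is a co-receptor that presents ligand. TGFBR1 phosphorylates SMAD2 and SMAD3, which join the shared partner SMAD4 and act on genes in the nucleus. SMAD7 blocks the type I receptor, the ubiquitin ligase SMURF1 marks receptors and SMADs for breakdown, and SKI represses SMAD complexes at their target genes. In T cells the pathway is known for inducing Foxp3 and for restraining activation.

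Promoter sequence is shown for Tgfbr2, Smad3, Smurf1 and Ski, because these 4 genes varied together, or in the opposite direction, across single libraries. The windows are RefSeq promoters on GRCm38.p6, kept to the bases upstream of the annotated gene, and are printed 5′ to 3′ on the gene's strand. All 4 genes lie on the minus strand. Capitals mark the GC box GGGCGG and the CCAAT box, each searched on both strands, so that CCGCCC and ATTGG are marked too. The windows lie at chr9:116175364-116175613 for Tgfbr2, chr9:63757995-63758244 for Smad3, chr5:144965848-144966080 for Smurf1 and chr4:155222593-155222785 for Ski.
Tgfbr2: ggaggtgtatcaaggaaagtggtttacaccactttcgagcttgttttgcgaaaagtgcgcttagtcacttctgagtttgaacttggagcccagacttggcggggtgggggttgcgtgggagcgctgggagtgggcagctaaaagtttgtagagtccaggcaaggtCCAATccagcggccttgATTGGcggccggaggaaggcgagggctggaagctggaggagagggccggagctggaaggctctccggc
Smad3: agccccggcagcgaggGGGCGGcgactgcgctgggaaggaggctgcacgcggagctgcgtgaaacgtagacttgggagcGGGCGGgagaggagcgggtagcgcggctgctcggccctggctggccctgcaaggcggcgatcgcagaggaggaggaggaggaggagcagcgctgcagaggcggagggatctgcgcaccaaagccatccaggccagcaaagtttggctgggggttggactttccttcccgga
Smurf1: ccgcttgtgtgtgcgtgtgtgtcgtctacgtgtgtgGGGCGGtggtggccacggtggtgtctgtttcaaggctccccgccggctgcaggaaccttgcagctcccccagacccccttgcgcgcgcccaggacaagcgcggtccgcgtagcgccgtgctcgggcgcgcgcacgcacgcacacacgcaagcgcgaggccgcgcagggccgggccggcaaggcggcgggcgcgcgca
Ski: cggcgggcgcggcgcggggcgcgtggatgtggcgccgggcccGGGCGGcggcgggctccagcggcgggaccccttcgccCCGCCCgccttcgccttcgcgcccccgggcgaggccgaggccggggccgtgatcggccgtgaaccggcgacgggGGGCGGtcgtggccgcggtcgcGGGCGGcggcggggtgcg

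The Tgfbr2 window held 2 CCAAT boxes and no GC box. The other 3 windows held GC boxes and no CCAAT box, with 2 for Smad3, 1 for Smurf1 and 4 for Ski. Their G and C content was 69.2%, 73.8% and 86.5%, against a median of 52.4% over RefSeq windows of 250 bases. The shares below are therefore not from windows of like content. Among 32851 RefSeq windows of 250 bases, the length used for Tgfbr2 and Smad3, 32.7% held a GC box and 33.8% held a CCAAT box. Over the same windows shortened to the 233 bases used for Smurf1, a GC box occurred in 30.3%, and over the 193 bases used for Ski it occurred in 23.5%. The nuclear receptor half-site AGGTCA, searched on both strands, was absent from all 4 windows and occurred in 14.0% of windows of 250 bases. The short SMAD motif CAGAC, searched likewise, was found 1 time for Tgfbr2, 2 times for Smurf1 and not for Smad3 or Ski. It occurred in 42.2% of windows of 250 bases. Such matches describe letters in these windows only. They do not set Tgfbr2, Smad3 and Smurf1, which varied together, apart from Ski, which varied against them.

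Levels were compared between genes per length, as CPM per kilobase of merged exons. Smad4 stood highest at 46.1 ± 11.7 (SD, n = 12), followed by Tgfbr2 at 38.9 ± 9.38 and Tgfbr1 at 30.9 ± 9.30. The ligand gene Tgfb1 stood at 21.8 ± 6.05 and Smurf1 at 19.7 ± 4.71. Ski at 16.2 ± 2.80 and Smad7 at 16.1 ± 3.63 were at the same level within their spread, and Ski was above Smad7 in 4 of 12 libraries. Smad3 stood at 13.1 ± 3.67 and Smad2 at 11.5 ± 1.37. Tgfbr3 was lowest at 5.77 ± 2.24, and it was the single gene below its neighbour in 12 of 12 libraries. For every other step of the order the 2 neighbours changed places in 2 or more libraries. Between neighbours, only the lowest place is therefore firm. Genes farther apart did separate. The lowest values of Smad4, Tgfbr2 and Tgfbr1 were 21.7, 22.6 and 20.7. These lay above the highest values of Smad7, Smad3 and Smad2, at 20.4, 18.1 and 13.6. Tgfbr1 and Smad7 were separated narrowly. The whole order depends on the merged exon lengths, which need not be those of the transcripts expressed.

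**Figure D1:**
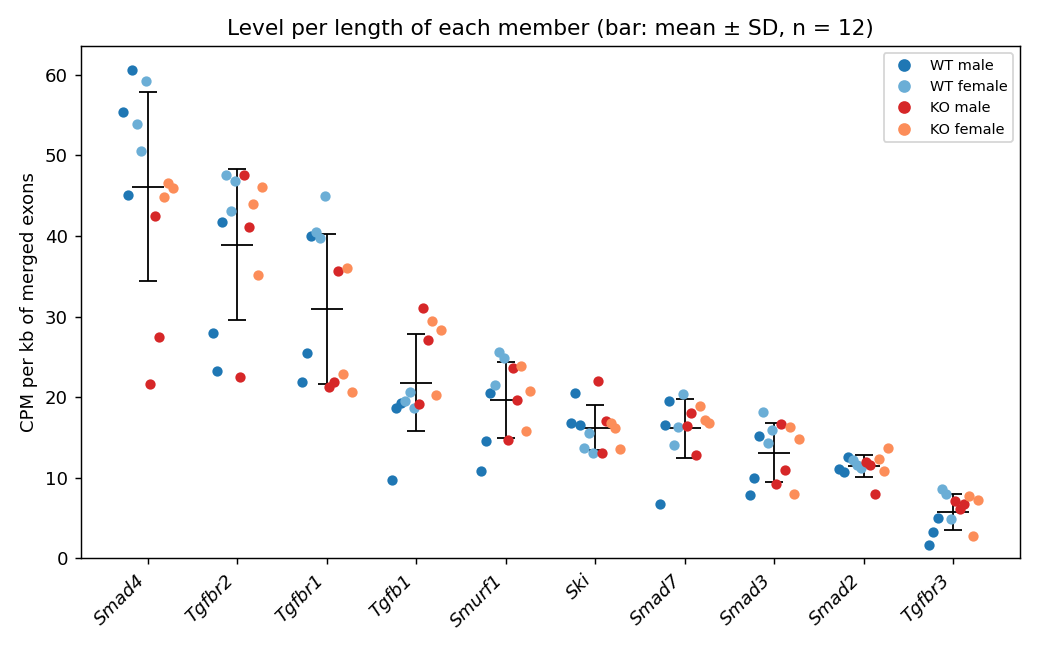
CPM per kilobase of merged exons (y axis) for each of the 10 genes (x axis, in order of the mean), with 1 point per library coloured by titled group and a bar for the mean ± SD over 12 libraries. Tgfbr3 has the lowest mean, and the points of most neighbouring genes overlap.

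Averaged over the sexes, none of the 10 genes passed the test between KO and WT (edgeR quasi-likelihood test, Benjamini-Hochberg over 13692 genes, threshold 0.05). Of all genes tested, 1.50% passed in this comparison. At an unadjusted p under 0.05 there were 3 members of 10, namely Smad4, Tgfb1 and Tgfbr1, beside 15.9% of all genes. The median log2 fold change of the members was 0.04, against 0.02 for all genes, and 6 of the 10 values were positive. No member separated the 6 KO libraries from the 6 WT libraries, which 2.40% of all genes did.

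Within males 0 members passed, where 0.0730% of all genes did, and 3 members had an unadjusted p under 0.05, beside 14.2% of all genes. Within females 0 members and 0% of all genes passed, and 1 member had an unadjusted p under 0.05, beside 7.71% of all genes. Groups of 3 against 3 that did not overlap were found in males for Smad4 and Tgfbr3, which is 2 of 10 beside 14.4% of all genes. In females Tgfbr1 and Smad4 did not overlap, again 2 of 10, beside 21.0% of all genes. The shares of members are thus near the shares over all genes or rest on 1 to 3 genes.

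**Figure D2:**
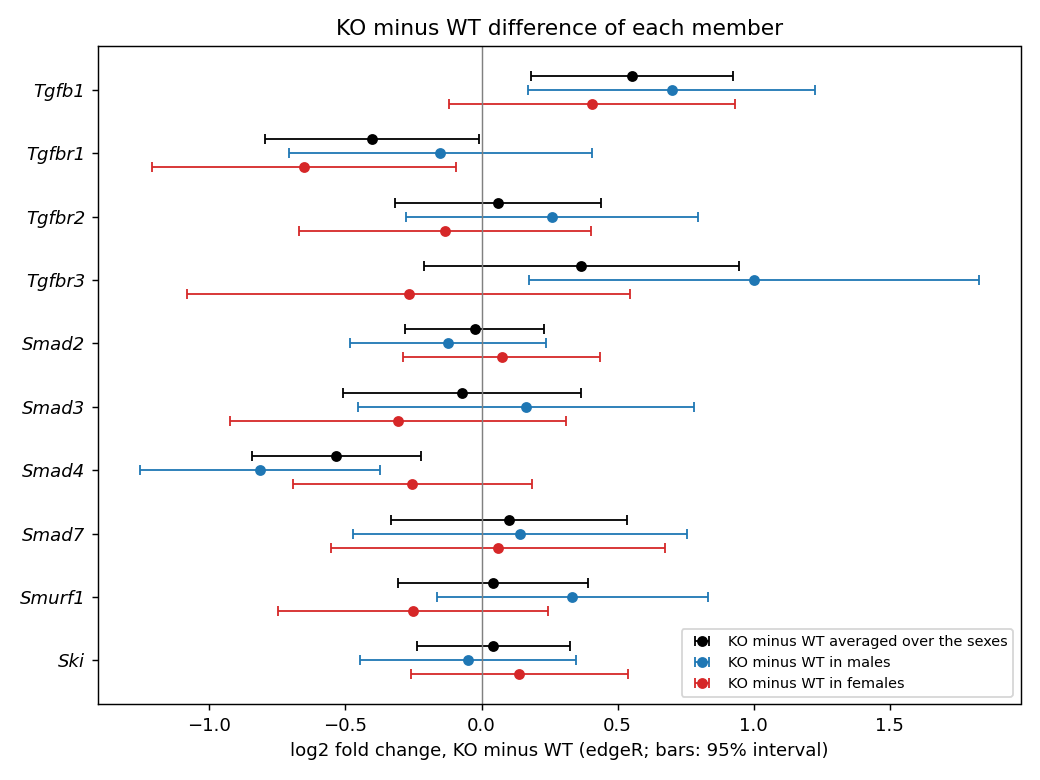
Log2 fold change of KO minus WT (x axis) for each of the 10 genes (y axis), averaged over the sexes and within each titled sex, with bars for 95% intervals from edgeR. Tgfb1 and Smad4 lie farthest from 0 in the average, on opposite sides, and none of the 10 genes passed after adjustment.

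Tgfb1 encodes TGF-beta 1, the ligand of the pathway (GRCm38 chromosome 7, 25687002 to 25705077, plus strand). Its level was 48.9, 94.1 and 97.3 CPM in WT male libraries 1 to 3, and 98.7, 104 and 94.1 CPM in the WT female libraries. It was 96.7, 157 and 137 CPM in the KO male libraries and 149, 102 and 143 CPM in the KO female libraries. In each KO group 2 of 3 libraries lay above every WT library, while the third KO library of each sex lay within the WT range.

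The mean of Tgfb1 was 89.5 ± 20.3 CPM in WT and 131 ± 25.0 CPM in KO (SD, n = 6). The log2 fold change averaged over the sexes was 0.55 (SE 0.17, 95% interval 0.18 to 0.92, edgeR adjusted p = 0.133). It was 0.70 (SE 0.25) in males, with an edgeR adjusted p of 0.223, and 0.41 (SE 0.25) in females, with an edgeR adjusted p of 0.745. The value stayed positive under all 20 alternative analyses, from 0.42 to 0.64 in the average over the sexes. In males it ran from 0.44 to 0.87 with 1 library left out, the lowest being without WT male 1 (edgeR adjusted p = 0.47), which held the lowest Tgfb1 level of the 12.

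Tgfbr1 encodes the type I receptor kinase (chromosome 4, 47353222 to 47414931, plus strand). WT male libraries 1 to 3 held 143, 167 and 261 CPM, and WT female libraries held 264, 259 and 294 CPM. KO male libraries held 139, 143 and 233 CPM, and KO female libraries held 149.7, 236 and 135 CPM. The 3 WT female libraries and WT male 3 were the highest of the 12, and 2 of 3 libraries in each KO group lay within or below the range of the 2 low WT male libraries.

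The Tgfbr1 mean was 231 ± 61.0 CPM in WT and 172 ± 48.1 CPM in KO. The log2 fold change was -0.40 averaged over the sexes (SE 0.18, 95% interval -0.80 to -0.01, edgeR adjusted p = 0.303). In females, where the groups did not overlap, it was -0.65 (SE 0.26, edgeR adjusted p = 0.589). In males it was -0.15 (SE 0.26) and the groups overlapped. With 1 library left out, the average ran from -0.55 to -0.26, the latter without WT male 3 (edgeR adjusted p = 0.556).

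Tgfbr2 encodes the type II receptor, which binds the ligand first (chromosome 9, 116084293 to 116175360, minus strand). WT male libraries held 229, 191 and 342 CPM, WT female libraries 389, 353 and 384 CPM, KO male libraries 185, 389 and 337 CPM, and KO female libraries 360.3, 288 and 377 CPM. The 3 lowest libraries were WT male 1, WT male 2 and KO male 1, and the ranges of WT and KO were nearly the same. Its log2 fold change averaged over the sexes was 0.06 (SE 0.18, 95% interval -0.32 to 0.44).

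Tgfbr3 encodes betaglycan (chromosome 5, 107106570 to 107289629, minus strand). Its exons share 4.54% of their bases with another annotated gene model, Gm43422, which has no row in the count table, so its counts are slightly uncertain. WT male libraries held 10.7, 21.4 and 33.2 CPM, WT female libraries 56.4, 52.1 and 32.0 CPM, KO male libraries 46.5, 40.1 and 44.1 CPM, and KO female libraries 50.7, 18.4 and 47.7 CPM. The WT male libraries were low and did not overlap the KO male libraries, while KO female 2 stood apart from the other 5 KO libraries.

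In males the log2 fold change of Tgfbr3 was 1.00 (SE 0.39, 95% interval 0.17 to 1.83, edgeR adjusted p = 0.268), and in females it was -0.27 (SE 0.38, edgeR adjusted p = 0.901). The interaction, which is the difference in females less that in males, was -1.27 (SE 0.54, edgeR adjusted p = 0.9). The difference between the sexes therefore did not pass after adjustment. Averaged over the sexes the value was 0.37 (SE 0.27).

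Smad2 and Smad3 encode the receptor-activated SMADs, and they differed in how much they varied. Smad2 (chromosome 18, 76241580 to 76310963, plus strand) was the steadiest member, with 94.2 to 110 CPM in WT libraries (median 100.04) and 70.5 to 119.8 CPM in KO libraries (median 104). KO male 3 was lowest and KO female 3 was highest. Smad2 had a log2 fold change of -0.02 averaged over the sexes (SE 0.12, 95% interval -0.28 to 0.23).

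Smad3 (chromosome 9, 63646767 to 63757994, minus strand) held 43.7, 55.0 and 84.0 CPM in WT male, 100.4, 79.1 and 88.6 CPM in WT female, 51.3, 92.4 and 60.8 CPM in KO male, and 90.5, 44.1 and 82.2 CPM in KO female libraries. The WT female libraries were all above 79 CPM, and each of the other groups held at least 1 library near or below 55 CPM. For Smad3 the log2 fold change averaged over the sexes was -0.07 (SE 0.20, 95% interval -0.51 to 0.37). The per-length ratio of Smad2 to Smad3 ran from 0.674 to 1.41 in WT and from 0.695 to 1.36 in KO libraries, so it overlapped throughout.

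**Figure D3:**
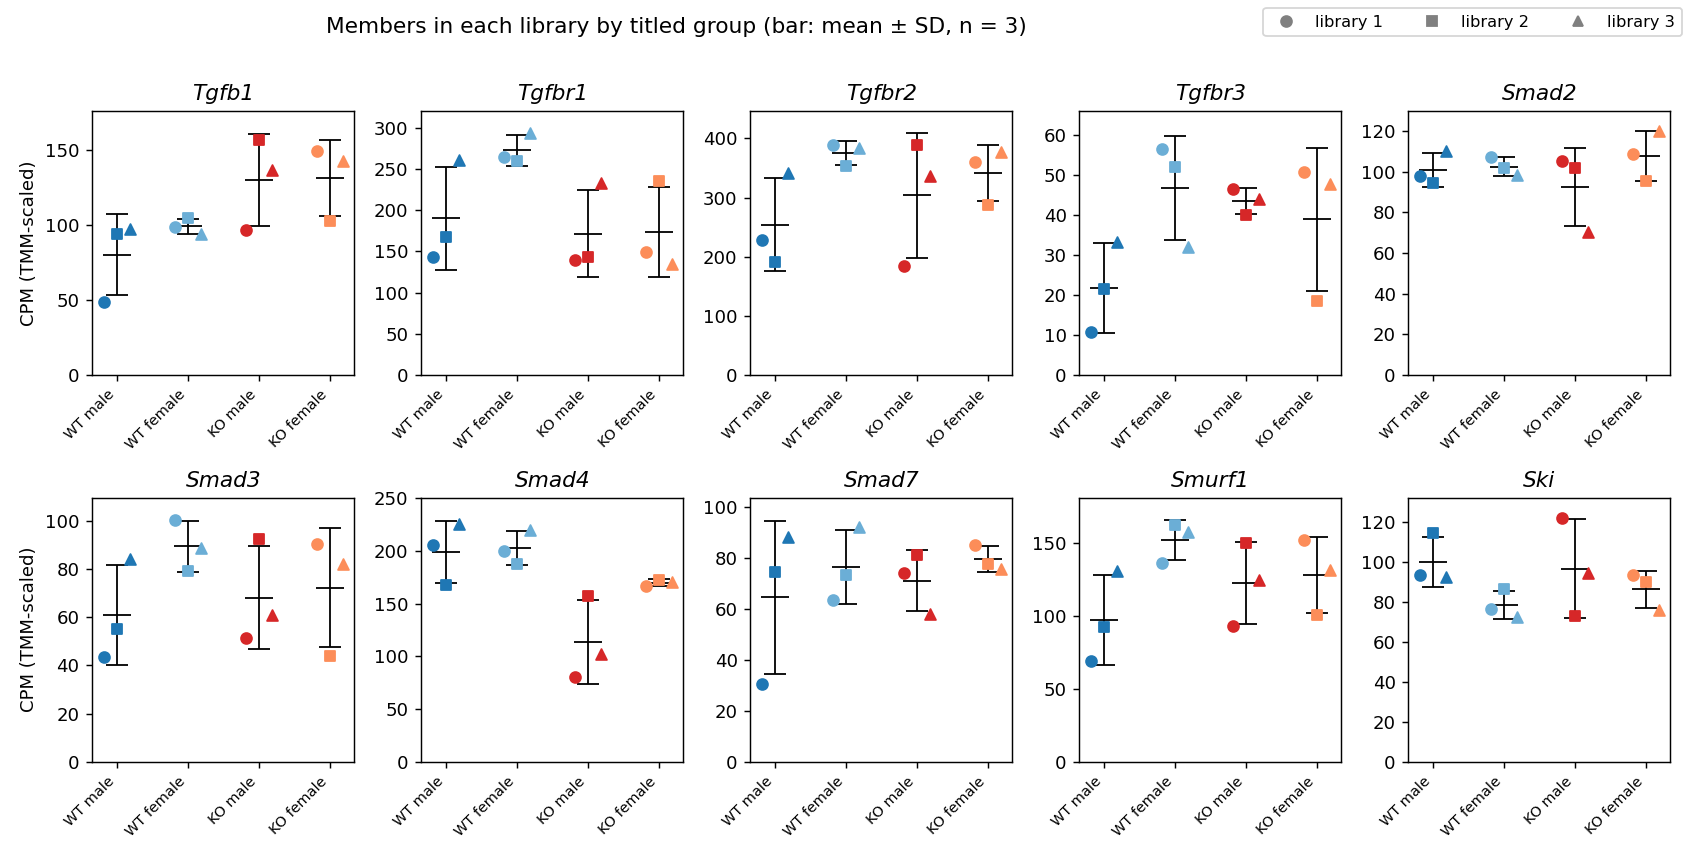
CPM with TMM scaling (y axis, from 0) of each of the 10 genes in the 4 titled groups (x axis), with 1 marker per library and a bar for the mean ± SD of 3 libraries. The KO male libraries of Smad4 lie below all other groups, the WT male libraries of Tgfbr3 lie below the KO male libraries, and 2 of 3 libraries in each KO group lie above all WT libraries for Tgfb1.

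Smad4 encodes the partner that SMAD2 and SMAD3 share (chromosome 18, 73639009 to 73703780, minus strand). WT male libraries held 205, 167 and 225 CPM, and WT female libraries held 200.3, 188 and 219.8 CPM. KO male libraries held 80.4, 158 and 102 CPM, and KO female libraries held 166, 173 and 171 CPM. All 3 KO male libraries were below all WT libraries, and the KO female libraries were close together, below the WT female libraries. WT male 2, at 167 CPM, was within the KO female range, so that the 6 WT and 6 KO libraries overlapped.

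The mean of Smad4 was 201 ± 21.3 CPM in WT and 142 ± 40.0 CPM in KO (SD, n = 6). The log2 fold change averaged over the sexes was -0.53 (SE 0.15, 95% interval -0.84 to -0.22, edgeR adjusted p = 0.0819), the smallest adjusted p among the 10 genes. In males it was -0.81 (SE 0.21, edgeR adjusted p = 0.108) and in females -0.25 (SE 0.21, edgeR adjusted p = 0.809). The interaction for Smad4 was 0.56 (SE 0.29, edgeR adjusted p = 0.9). Per length, Smad4 was 4.20 to 5.30 times Smad2 in WT libraries (median 4.62) and 1.81 to 4.30 times Smad2 in KO libraries (median 3.53). The 2 ranges overlapped at their ends.

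Smad4 and Tgfb1 were near the threshold, and their calls changed with the analysis. For the average over the sexes, Smad4 passed with DESeq2 (log2 fold change -0.52, adjusted p = 0.0239), with limma voom, weighted by library quality (-0.57, adjusted p = 0.0128) and with edgeR without a filter on low counts (-0.54, adjusted p = 0.0085). Tgfb1 passed under the same 3 settings, with adjusted p = 0.0451 in DESeq2, 0.0413 in limma voom and 0.00927 in edgeR without the filter. These settings also called more of all genes, at 4.70% with DESeq2, 4.36% with limma voom and 2.55% without the filter. The adjusted p over 20 alternatives ran from 0.0085 to 0.216 for Smad4 and from 0.00927 to 0.282 for Tgfb1.

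Leaving out KO male 2, the highest of the 3 KO male libraries for Smad4 and 1 of the 4 libraries against their titled sex, took Smad4 to -0.69 averaged over the sexes (edgeR adjusted p = 0.0106) and to -1.13 in males (edgeR adjusted p = 0.00904). In that setting 3.79% of all genes passed in the average and 5.13% in males. This was the strongest case. With 1 library left out, Smad4 ran from -0.69 to -0.44 averaged over the sexes and from -1.13 to -0.62 in males. Over the 20 alternatives (edgeR, DESeq2 or limma) its adjusted p in males ran from 0.00495 to 0.328. In males Smad4 also passed with DESeq2 (adjusted p = 0.0164, beside 3.07% of all genes). Without the filter Smad4 (edgeR adjusted p = 0.00495), Tgfbr3 (0.00341) and Tgfb1 (0.0331) passed in males, beside 1.80% of all genes. In females limma voom called Tgfbr1 at -0.87 (adjusted p = 0.00187) and Tgfb1 at 0.53 (adjusted p = 0.028), beside 12.4% of all genes.

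Without the 4 libraries of unmatched sex, which leaves 8 libraries and 1 in the KO male group, whose spread is then assumed to be like that of the other groups, no member passed. Smad4 was at -0.65 averaged over the sexes (edgeR adjusted p = 0.0728) and at -0.99 in males (edgeR adjusted p = 0.0631). Tgfb1 was at 0.54 (edgeR adjusted p = 0.25). Tgfbr1 was at -0.17 averaged over the sexes and at 0.26 in males, where its sign turned, and at -0.60 in females. Smad2 moved to -0.24 averaged over the sexes and to -0.54 in males (edgeR adjusted p = 0.42 and 0.206), and Smad3 to -0.31 averaged over the sexes and to -0.59 in females (edgeR adjusted p = 0.565 and 0.805). Tgfbr3 was at 0.28 averaged over the sexes, 0.99 in males and -0.43 in females. For Tgfbr2 the values were 0.08, 0.38 and -0.23, for Smurf1 -0.01, 0.33 and -0.35, for Ski 0.02, -0.11 and 0.14, and for Smad7 -0.10, -0.18 and -0.03, in the same order. The 8 libraries left still went against the genotype titles in Esr2. It lay between 0 and 0.896 CPM in WT male 1, 2 and 3 and WT female 1, and at 12.3 CPM in WT female 3. In KO male 3, KO female 2 and KO female 3 it was at 9.08, 8.06 and 11.5 CPM.

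Smad7 encodes the inhibitory SMAD (chromosome 18, 75367529 to 75395935, plus strand). It held 30.7, 74.7 and 88.4 CPM in WT male, 63.5, 73.6 and 92.2 CPM in WT female, 74.3, 81.4 and 58.0 CPM in KO male, and 85.4, 77.8 and 75.9 CPM in KO female libraries. WT male 1 was the lowest library, and the other 11 ran from 58.0 to 92.2 CPM with WT and KO mixed. Smad7 had a log2 fold change averaged over the sexes of 0.10 (SE 0.20, 95% interval -0.33 to 0.54).

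Smurf1, the gene of the ubiquitin ligase (chromosome 5, 144876495 to 144965847, minus strand), held 69.1, 92.0 and 130.3 CPM in WT male, 136, 162 and 158 CPM in WT female, 93.2, 149.8 and 124 CPM in KO male, and 152, 100.2 and 131 CPM in KO female libraries. The WT female libraries were all above the WT male libraries, and the KO libraries of the sexes overlapped. The share of all genes with such a split within WT was not computed, so the split is not shown to be particular to this gene. The WT female group also holds a library that went against its titled sex, so the split is between titles. Smurf1 had a log2 fold change of 0.04 averaged over the sexes (SE 0.16, 95% interval -0.31 to 0.39).

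Ski, the gene of the SMAD corepressor (chromosome 4, 155154075 to 155222592, minus strand), held 93.4, 114 and 92.4 CPM in WT male, 76.4, 86.4 and 72.6 CPM in WT female, 122, 73.0 and 94.5 CPM in KO male, and 93.4, 89.9 and 75.8 CPM in KO female libraries. The highest libraries were KO male 1 and WT male 2, and the WT and KO ranges overlapped. The log2 fold change averaged over the sexes was 0.04 (SE 0.13, 95% interval -0.24 to 0.32).

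For 9 of the 10 genes the mean was higher in libraries titled female than in those titled male, and Ski was the exception at -0.26 (SE 0.13). None passed the test, and 0% of all genes passed. The median log2 difference of the members, female minus male averaged over the genotypes, was 0.29, against -0.002 for all genes. Of all genes, 50.2% had a negative value. Smurf1, at 0.35 (SE 0.16, edgeR adjusted p = 0.662), was the only member with an unadjusted p under 0.05, beside 7.06% of all genes. No member separated the 6 female from the 6 male libraries, which 0.153% of all genes did. Of the 6 libraries titled female 2 went against that title, as did 2 of the 6 titled male, so this difference is between titles.

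The interaction was tested for all 10 genes, and 0 members and 0% of all genes passed. Its values ran from -1.27 for Tgfbr3 to 0.56 for Smad4, and 7 of 10 were negative. Tgfbr3 was the single member with an unadjusted p under 0.05, beside 4.81% of all genes. Without the filter on low counts the interaction of Tgfbr3 was -1.28 (edgeR adjusted p = 0.0292), beside 0.431% of all genes. Tgfbr3 passed in that setting alone among the alternatives tried.

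Single libraries moved many of the 10 genes at once. WT male 1 was the lowest of the 12 libraries for 5 members and the lowest of its group for 6. WT male 3 was the highest of its group for 9 of 10 members. The same counts over all genes were not computed, so this is not shown to be particular to the members. The spread within groups, as the SD of log2 values, was 0.60 for Tgfbr3, 0.44 for Smad7, 0.43 for Smad3, 0.38 for Tgfbr1, 0.37 for Tgfbr2 and 0.36 for Tgfb1. Among genes of a like level, 98.3% had a smaller spread than Tgfbr3 and 94.3% a smaller one than Smad7. Ski at 0.23 and Smad2 at 0.19 were steadier, with 50.0% and 33.7% of like genes below them.

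**Figure D4:**
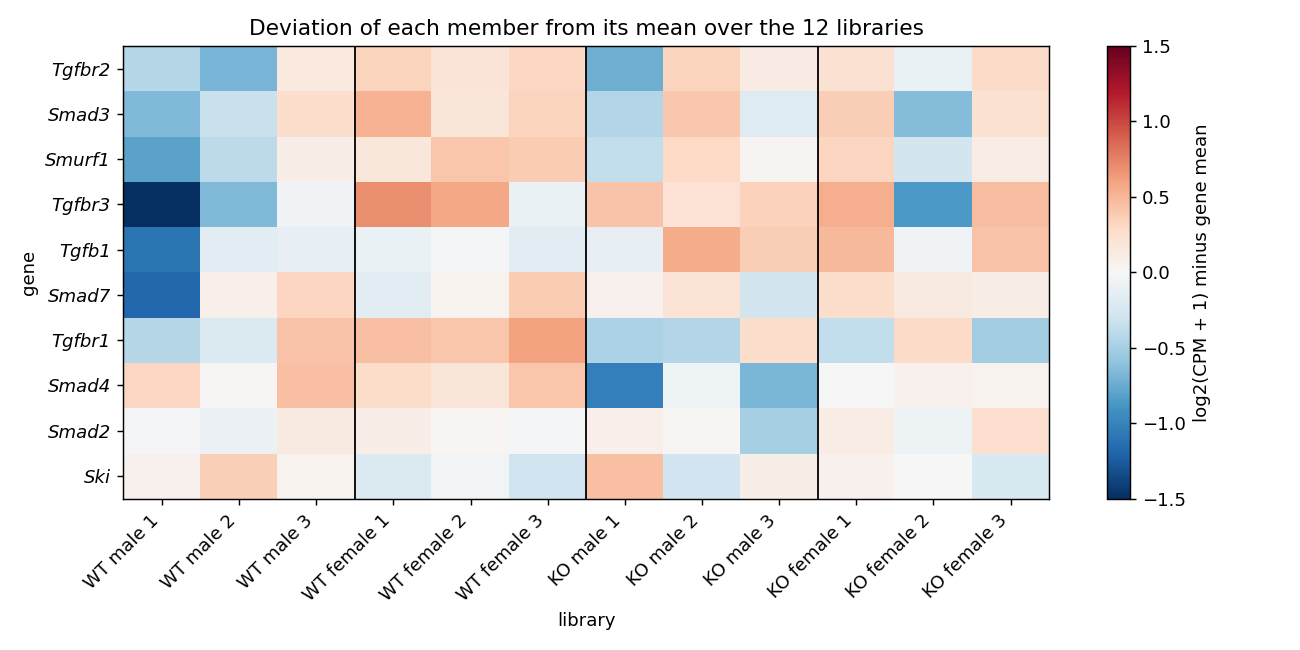
Each cell gives log2(CPM + 1) of a gene (rows) in a library (columns) minus the mean of that gene over 12 libraries, in colour from blue (low) to red (high). WT male 1 is blue for most genes, and the rows of Tgfbr2, Smad3 and Smurf1 change together while Ski changes in the opposite direction.

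The members varied together across libraries in part. Over the 45 pairs, 32 had a positive Pearson r of log2(CPM + 1), with a median r of 0.29. In a permutation test (two-sided, 100000 resamples, Benjamini-Hochberg over 45 pairs) 6 pairs passed. The same shares over pairs of all genes were not computed. The covariation is therefore not shown to be particular to the members. The type II receptor gene Tgfbr2 and Smad3 had r = 0.80 (permutation p = 0.0026, adjusted p = 0.0292) and Spearman rho = 0.90 (permutation p = 0.00024, adjusted p = 0.0108). Without WT male 2 and KO male 1, the libraries farthest from the median of Tgfbr2, r was 0.91. Tgfbr2 and Smurf1 had r = 0.84 (permutation p = 0.00139, adjusted p = 0.0208), rho = 0.78 (permutation p = 0.00364, adjusted p = 0.0546) and r = 0.93 without those libraries.

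Tgfbr2 and Ski varied in opposite directions, with r = -0.88 (permutation p = 4e-05, adjusted p = 0.0018) and rho = -0.87 (permutation p = 0.00061, adjusted p = 0.0137). Without the same 2 libraries r was -0.64. Ski was highest in KO male 1 and WT male 2, where Tgfbr2 was lowest, and was lowest in WT female 3 and KO male 2, where Tgfbr2 was among the highest. Smad3 and Smurf1 had r = 0.88 (permutation p = 0.0003, adjusted p = 0.00675), rho = 0.75 (permutation p = 0.0067, adjusted p = 0.0754) and r = 0.85 without WT male 1 and KO female 2.

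Tgfbr3 with Smurf1 (r = 0.77, permutation p = 0.00451, adjusted p = 0.0406, rho = 0.60, permutation p = 0.043, adjusted p = 0.221) and with Smad3 (r = 0.72, permutation p = 0.00633, adjusted p = 0.0475, rho = 0.59, permutation p = 0.049, adjusted p = 0.221) also passed on r, but not on rho. Without WT male 1 and KO female 2 these values were 0.43 and 0.37, so that these 2 relations rest on those libraries. Computed on deviations from the titled group means, r was 0.76 for Tgfbr2 and Smad3, 0.77 for Tgfbr2 and Smurf1 and -0.82 for Tgfbr2 and Ski. Without the 4 libraries of unmatched sex, which leaves 8 libraries, no pair passed. No batch, day or lane is given in the labels, so no values within batches could be formed.

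**Figure D5:**
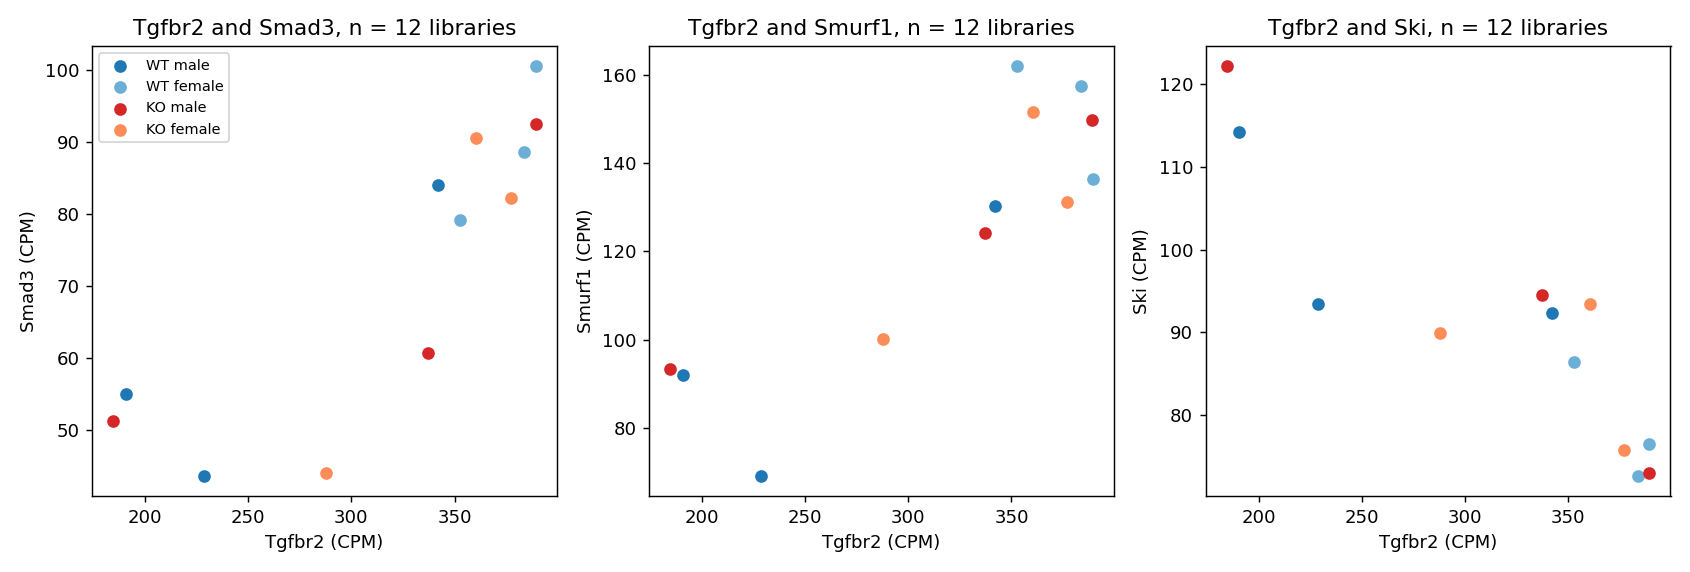
CPM of Tgfbr2 (x axis) against CPM of Smad3, Smurf1 and Ski (y axes), with 1 point per library coloured by titled group. Smad3 and Smurf1 are high where Tgfbr2 is high and Ski is low there (r = 0.80, 0.84 and -0.88), with WT and KO libraries mixed along each trend.

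By likeness over the 12 libraries, measured as Pearson r among 9028 genes averaging at least 10 CPM, the genes nearest to Tgfbr2 were Mcm3ap (0.97) and Golga3 (0.96). Nup205 (0.96) and Tnpo1 (0.95) were nearest to Smad3, Sp2 (0.92) and Zbtb40 (0.90) to Smad7, and Snord47 (0.92) and BE692007 (0.91) to Ski. Spearman rho was 0.75 for Mcm3ap, 0.86 for Golga3, 0.94 for Nup205 and 0.83 for Tnpo1. It was lower for the neighbours of Smad7, at 0.69 for Sp2 and 0.52 for Zbtb40, and was 0.88 for Snord47 and 0.90 for BE692007. These values are descriptions of the same 12 libraries and carry no test.

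Other genes of the pathway were read from lists by role. Averaged over the sexes, none of 11 tested genes for ligands and latent TGF-beta activation passed, and their median log2 fold change was 0.02. Their most abundant gene, Lrrc32, which encodes the GARP protein that holds latent TGF-beta on Tregs, stood at 237 ± 48.7 CPM in WT and 261 ± 55.0 CPM in KO. Furin, which encodes a protease that cleaves the TGF-beta precursor, stood at 77.7 ± 28.4 CPM in WT and 75.9 ± 18.9 CPM in KO (SD, n = 6).

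None of 10 other receptor genes passed (median -0.01). The co-receptor gene Nrp1 was at 317 ± 42.7 CPM in WT and 301 ± 74.6 CPM in KO, and the activin receptor gene Acvr2a at 19.5 ± 4.71 CPM in WT and 15.4 ± 4.22 CPM in KO. Neither of the 2 other SMAD genes tested passed (median -0.35). Smad1, which carries bone morphogenetic protein signals, held 49.1 to 55.6 CPM in WT and 35.2 to 48.5 CPM in KO libraries. These ranges did not overlap, which held for 2.40% of all genes. The log2 fold change of Smad1 was -0.36 (SE 0.11, edgeR adjusted p = 0.134). Smad5, of the same class, was at 28.6 ± 7.12 CPM in WT and 22.4 ± 6.32 CPM in KO.

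Among 27 tested regulators of receptors and SMADs, 1 passed and 26 did not (median -0.08), beside 1.50% of all genes. This was Ipo7, the gene of an importin that carries proteins into the nucleus, which fell from 55.4 ± 9.53 CPM in WT to 35.0 ± 8.57 CPM in KO (log2 fold change -0.67, SE 0.15, edgeR adjusted p = 0.0388). None of 15 nuclear partners passed (median -0.07). Their most abundant genes were Jun, at 513 ± 260 CPM in WT and 501 ± 52.6 CPM in KO, and Foxo1, at 486 ± 47.6 CPM in WT and 491 ± 28.5 CPM in KO.

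Of 13 genes for signalling without SMADs 1 passed (median -0.19), beside 1.50% of all genes. Cdc42, the gene of a small GTPase of the cytoskeleton, fell from 824 ± 39.5 CPM in WT to 581 ± 74.8 CPM in KO (log2 fold change -0.50, SE 0.10, edgeR adjusted p = 0.0314). Of 14 response genes 1 passed (median -0.16), beside the same 1.50%, and 12 of 14 values were negative, beside 47.8% of all genes. Tgfbi, which encodes a secreted matrix protein, rose from 0.998 ± 1.20 CPM in WT to 5.30 ± 4.45 CPM in KO (log2 fold change 3.36, SE 0.68, edgeR adjusted p = 0.0296), at a low level and with no reads in WT male 2 and 3, so that its fitted fold change depends on the prior count. The response genes Foxp3 and Itgae stood at 771 ± 108 and 662 ± 123 CPM in WT and at 737 ± 148 and 578 ± 145 CPM in KO. No gene of these lists passed in the other 4 comparisons.

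The calls of Ipo7, Cdc42 and Tgfbi were near the threshold. They kept their direction in 20 of 20 alternatives, chosen for these genes after seeing the data, and passed in 8 for Ipo7, 8 for Cdc42 and 9 for Tgfbi. Their adjusted p ran from 0.00247 to 0.126, from 0.000344 to 0.101 and from 1.89e-08 to 0.117. All 3 calls were lost when any of WT male 2, WT male 3, the WT female libraries, KO male 3, KO female 1 or KO female 3 was left out, and Ipo7 was lost without KO male 1 and Cdc42 without WT male 1. Without the 4 libraries of unmatched sex the edgeR adjusted p was 0.0702 for Ipo7, 0.0598 for Cdc42 and 0.0518 for Tgfbi.

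Markers of other cell types also differed between the titled genotypes. The 5 B cell markers summed to 38.0 to 175 CPM in WT and 145 to 326 CPM in KO libraries. In the average over the sexes 4 of 5 were called higher, beside 1.50% of all genes called in either direction. The monocyte and macrophage markers, of which 4 of 5 were in the table, summed to 16.1 to 279 CPM in WT and 117 to 328 CPM in KO, with Cd14 at 0 in some libraries, and 0 were called. The 6 neutrophil markers summed to 0 to 0.807 CPM in WT and 1.12 to 28.8 CPM in KO. Of 4 tested, 3 were called higher, beside the same 1.50%. These calls rest on WT levels near 0, with all 6 markers at 0 reads in WT male 2 and WT male 3. Like the B cell and monocyte sums, the dendritic cell, platelet and stromal marker sums overlapped between WT and KO. The stromal and endothelial sum was mostly Pecam1, on average 106 of 108 CPM in WT and 133 of 136 CPM in KO. Of 3 stromal and endothelial genes tested, 3 were higher in KO averaged over the sexes and 0 were called. The CD8 T and NK cell sum was 27.2 to 46.3 CPM in WT and 26.5 to 72.2 CPM in KO. Their part in the values of Tgfb1, Smad4, Tgfbr1 and Tgfbi was not tested. In these bulk samples, fewer cells of a type and less RNA per cell cannot be told apart.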

How the data were processed

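The authors deposited raw counts per gene symbol and log2 values of counts scaled to library size (CPM). The submitters' processing notes list edgeR, Subread, featureCounts 1.5.0-p2 and HISAT2 2.0.5 with the build GRCm38. Neither annotation release nor strand option is given in the sources used here, and the kits named in the labels' protocols do not mark strand. The deposited log2 values matched edgeR log2 CPM (TMM scaling, prior count 0.25) within 5e-14 for 24584 genes and served in an alternative.

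The counts were tested with edgeR 4.0.16 in R 4.3.3: filterByExpr (at least 99.8% of counts kept), TMM, 1 quasi-likelihood model of 4 group means over 12 libraries, two-sided, Benjamini-Hochberg over all genes tested. The biological coefficient of variation common to all genes was 29.3%. Standard errors come from the F statistic, and CPM use TMM-scaled totals. The 10 genes had 182 to 5822 counts per library, so counting error is small beside the spread between libraries. Both WT male 2 and WT male 3 carry the title number 2; their counts differed by more than sampling noise, and they were kept as separate libraries. DESeq2 1.42.0, limma 3.58.1 (voom with quality weights, and limma-trend), other scaling, no filter, a replicate block and left-out libraries were alternatives. Exon lengths come from GENCODE M21. Promoter windows, from RefSeq on GRCm38.p6, were used for 6 of the 10 genes. The script was tested on simulated data. Members and lists were chosen with earlier results of these data known. Genes named from a list are all that passed in any comparison (at most 4), or else the 2 with the highest mean CPM; the response genes Foxp3 and Itgae were chosen after their values were seen. For Tgfbr2, Smad3, Smad7 and Ski, the 2 genes with the highest r were named.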

Additional observations from a re-analysis of the deposited data

Results flagged for a closer look

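Of 20 sets of 6 libraries examined (10 genes in each titled genotype), 2 held a library far from the others, where chance gives about 1 in 20. Tgfb1 in WT male 1 was at 48.9 CPM, the lowest of the 6 WT libraries, and the next was at 94.1 CPM. The gap was 0.816 of the range, against a critical value of 0.625. Tgfbr3 in KO female 2 was at 18.4 CPM, the lowest of the 6 KO libraries, and the next was at 40.1 CPM. Its gap was 0.671 of the range. Leaving out each library in turn moved the log2 fold change averaged over the sexes between 0.42 and 0.64 for Tgfb1 and between 0.20 and 0.58 for Tgfbr3, and neither passed (edgeR).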

How the results depend on the processing

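Of 600 values of the 10 genes under 20 alternatives, 554 kept their sign and side of the threshold, 14 passed only under the alternative and 32 changed sign. Of the 10 genes, Tgfb1 and Smad4 kept their sign under all 20 alternatives in the average and in both sexes. The counts of members that passed averaged over the sexes were 2 with DESeq2, 2 with limma voom, 2 without the filter and 0 to 1 with a library left out. In males they were 1 with DESeq2, 3 without the filter and 0 to 1 with a library left out, in females 2 with limma voom, and for the interaction 1 without the filter. The cause of these changes was not tested.

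Genes called averaged over the sexes numbered 206, against 644 with DESeq2, 597 with limma voom, 627 without the filter, 14 without the 4 libraries of unmatched sex, 31 with WT male 2 and 3 summed, and 12 to 543 with a library left out. In males 10 were called, against 420 with DESeq2, 0 with limma voom, 443 without the filter, 135 without the 4 libraries, 0 with WT male 2 and 3 summed, and 0 to 734 with a library left out. In females 0 were called with edgeR, against 22 with DESeq2, 1698 with limma voom, 132 without the filter and 0 to 2 with a library left out. For female minus male 0 were called, against 5 with DESeq2, 149 without the filter, 6 without the 4 libraries and 0 to 40 with a library left out. For the interaction 0 were called, against 3 with DESeq2, 106 without the filter and 0 to 4 with a library left out.

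With the title number as a replicate block, 9 genes were called averaged over the sexes and 0 in males, and no member passed in any comparison. Ipo7, Cdc42 and Tgfbi had adjusted p of 0.0957, 0.101 and 0.117 with the block (edgeR). The numbers did not pair the libraries: deviations of the 18 same-numbered pairs correlated at -0.27 to 0.09, those of the other 36 pairs at -0.14 to 0.27.

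The sign changed with limma voom for Smad2 (0.0099) and Smad3 (0.0148) averaged over the sexes. Without the 4 libraries it changed for Smad7 (-0.105) and Smurf1 (-0.0132) averaged over the sexes, for Tgfbr1 (0.262), Smad3 (-0.0310) and Smad7 (-0.182) in males, and for Smad7 (-0.0273) in females. With a library left out, the values averaged over the sexes ran from -0.0507 to 0.196 for Tgfbr2, -0.0792 to 0.0518 for Smad2, -0.216 to 0.0772 for Smad3, -0.0718 to 0.245 for Smad7, -0.0603 to 0.173 for Smurf1 and -0.0622 to 0.126 for Ski. In males they ran from -0.438 to 0.144 for Tgfbr1, -0.227 to 0.0358 for Smad2, -0.122 to 0.467 for Smad3, -0.199 to 0.436 for Smad7 and -0.258 to 0.116 for Ski. In females they ran from -0.510 to 0.0614 for Tgfbr3, -0.0137 to 0.147 for Smad2 and -0.0658 to 0.223 for Smad7. Of the 45 pairs of members 6 passed, against 2 with Spearman's rho, 10 on deviations from the group means, 0 without the 4 libraries and 3 to 8 with a library left out. The permutation treated the deviations as independent, although subtracting a group mean ties those of a group together. The count of 10 can therefore be too high and is not comparable with 6.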
